A study of Homo sapiens with 4 samples.

Results

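Regions at gene ends were the accessible regions of an ATAC-seq table that its annotation places in a 3' UTR or at a TTS. A 3' UTR is the untranslated stretch after the stop codon. A TTS, or transcription termination site, is the place where the annotated transcript stops, and a region so labelled can lie some way from it. The regions at gene ends numbered 1165 of 58127 regions, with 376 in a 3' UTR and 789 at a TTS. ATAC-seq reads open chromatin through insertion of sequencing adapters by a transposase. The cells were of the line MCF10A, established from non-tumorigenic human breast epithelium, in 4 libraries: 2 labelled shG8d, which carried a short hairpin against SNHG8d, and 2 labelled shNC, which carried a control hairpin, each group lettered A and B. No label gives a passage, a treatment, a time or a separate culture for a library, so each p-value measured the spread between libraries alone, and that spread may be technical.

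The table divides into a common region set and 2 specific sets, and the group labels are exchanged between them. One read was worth the same number of normalized counts in the library labelled shG8d A in the common set and in the library labelled shNC A in both specific sets, and the other 3 libraries matched in the same way. Libraries are therefore named here by depth. The deeper pair held 8124488 (A) and 8111839 (B) reads in regions, was labelled shG8d in the common set and shNC in the specific sets. The shallower pair held 4457248 (A) and 4344212 (B) reads, with the opposite labels. Every difference below is the deeper pair minus the shallower pair, and none is assigned to the knockdown. Promoter regions were present for 7 of 8 epithelial marker genes, with TP63 lacking one, and for 0 of 4 fibroblast, 0 of 3 endothelial and 0 of 3 leukocyte markers.

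Accessible chromatin past the end of a gene is known to arise in several ways. Enhancers and binding sites of transcription factors can lie in 3' UTRs or just beyond a TTS, the start of a neighbouring gene can lie close by, and in compact genes such as histone and immediate early genes the end lies near the gene's own promoter. A small noncoding gene such as a microRNA gene is so short that its annotated end lies close to its start.

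Among the gene ends were 50 regions at the ends of 44 genes whose symbol names a microRNA. Of these regions 10 differed between the library pairs in the test described below. The 7 gene ends without a symbol were not counted here, whatever they encode. The mature microRNAs of MIR5587, MIR4669, MIR3935, MIR4756, MIR6838, MIR1184-1, MIR4785, MIR3179-1 and MIR3917, which are among those called, are printed from RefSeq (GRCh38.p14) to show which microRNAs the annotation names there. That of MIR4485, whose end was among the most strongly covered regions of the table, is printed with them. A called region need not cover its microRNA, since the nearest TSS was 718 bp away at MIR4669 and 791 bp away at MIR4785. Letters run 5' to 3', and capitals mark the seed, bases 2 to 8, through which a microRNA pairs with its targets.
miR-5587-5p: aUGGUCACcuccgggacu
miR-5587-3p: gCCCCGGGcagugugaucauc
miR-4669: uGUGUCCGggaaguggaggagg
miR-3935: uGUAGAUAcgagcaccagccac
miR-4756-5p: cAGGGAGGcgcucacucucugcu
miR-4756-3p: cCAGAGAUgguugccuuccuau
miR-6838-5p: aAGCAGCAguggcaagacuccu
miR-1184: cCUGCAGCgacuugauggcuucc
miR-4785: aGAGUCGGcgacgccgccagc
miR-3179: aGAAGGGGugaaauuuaaacgu
miR-3917: gCUCGGACugagcagguggg
miR-4485-3p: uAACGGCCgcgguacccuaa
No seed among these was shared. In GRCh38.p14 the mature miR-5587-5p lies at chr16:535316-535333 on the plus strand, miR-4669 at chr9:134379449-134379470 on the plus strand and miR-4785 at chr2:160407819-160407839 on the minus strand. The region values are on hg19 annotation, and no coordinate was carried between the builds.

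Counted by the gene that the annotation names, the gene ends were spread over 1096 genes, of which 62 had 2 or more regions and 6 had 3 or more. Coding transcripts (RefSeq NM accessions) accounted for 939 ends and noncoding ones (NR accessions) for 226. The nearest transcription start site (TSS) belonged to the same gene in 539 regions and to another gene in 626. In 299 of those 626 the region lay upstream of the other gene's TSS. The median distance to the nearest TSS was 8127 bp. The median gene end held 64 and 71 reads in the deeper libraries and 46 and 46 in the shallower ones, a depth at which a modest change could not be detected.

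In the common set, 569 of 33913 regions lay at gene ends. A limma test on log2(normalized count + 1), with Benjamini-Hochberg adjustment over all 58127 regions and an adjusted p under 0.05 as the call, gave 59 gene ends higher in the deeper pair, beside 10.7% of all common regions, and 84 lower, beside 15.0% of all common regions. As shares of the gene ends these were 10.4% and 14.8%, both near the background, so the counts say nothing particular about gene ends. The median log2 difference was -0.07 over the gene ends and -0.12 over all common regions. The counts moved with the libraries used: without deeper-pair replicate A the calls fell to 23 higher and 24 lower, and without deeper-pair replicate B to 27 and 36. Without shallower-pair replicate A they were 90 higher and 100 lower. Of the called gene ends, 20 of the 59 higher and 19 of the 84 lower were called in all 4 fits that each left out 1 library. Putting the 4 libraries on equal totals moved the median of all regions by -0.35, and the common gene ends then split into 24 higher and 207 lower.

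**Figure D1:**
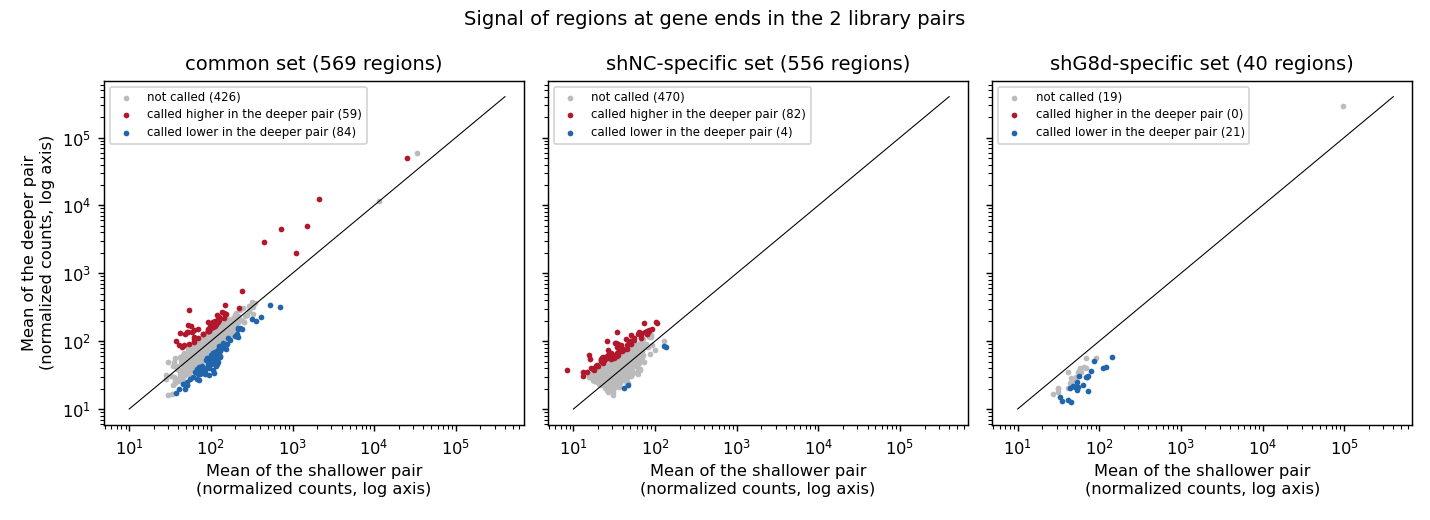
Mean signal of each region at a gene end in the deeper pair (vertical, normalized counts, log axis) against the shallower pair (horizontal, log axis), 1 panel per region set. Each point is a region and the line marks equal means. Common regions lie on both sides of the line (59 called above, 84 below), shNC-specific regions are called almost wholly above it (82 against 4) and shG8d-specific regions below it (21), with 1 far stronger region, the end of NR_106781, above the line in the last panel.

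The shNC-specific set held 556 gene ends of 21459 regions and the shG8d-specific set 40 of 2755. The authors may have chosen the regions of both specific sets from these same libraries, so the direction of their differences is a description. In the shNC-specific set 82 gene ends were called higher in the deeper pair, beside 13.2% of that set, and 4 were called lower, beside 0.979% of it. The gene ends' own shares were 14.7% and 0.719%, and their median log2 difference was 0.33 against 0.24 over the whole set. Without deeper-pair replicate A the higher calls numbered 20, without deeper-pair replicate B 28 and without shallower-pair replicate A 142, while on equal library totals there were 30 higher and 30 lower. In the shG8d-specific set 0 of 40 gene ends were called higher, beside 0.0363% of the set, and 21 were called lower, beside 70.0% of the set. Their share was 52.5%, and the median log2 difference was -0.96 over the gene ends and -1.20 over the set. The lower calls numbered 11 without deeper-pair replicate A and 32 on equal library totals.

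The 2 kinds of gene end gave similar shares, and the difference between them was not tested. In the common set 15 of 173 regions in a 3' UTR were called higher and 23 lower, and 44 of 396 regions at a TTS were called higher and 61 lower. In the shNC-specific set 26 of 191 regions in a 3' UTR and 56 of 365 at a TTS were called higher. In the shG8d-specific set 7 of 12 and 14 of 28 were called lower. Single-exon genes supplied only 12 of the 376 regions in a 3' UTR, and 4 of those 12 were called higher and 2 lower. In the common set 3 of 4 were called higher, beside 10.7% of all its regions. In the shNC-specific set it was 1 of 6, beside 13.2%. In the shG8d-specific set 2 of 2 were called lower, beside 70.0%. Of the 4 higher calls 3 were at MTRNR2L1, MTRNR2L3 and MTRNR2L10, whose values are uncertain for a reason given below.

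Calls varied with the distance to the nearest TSS. Among common gene ends under 1 kb from a TSS, 17 of 96 were called higher and 9 lower, with a median log2 difference of 0.03. Among those over 20 kb away, 8 of 146 were called higher and 24 lower, with a median of -0.23. The 17 higher calls under 1 kb included 6 at microRNA genes and that of MTRNR2L10, whose value is uncertain for a reason given below. In the shNC-specific set 11 of 50 gene ends under 1 kb from a TSS and 15 of 140 over 20 kb away were called higher, with medians of 0.39 and 0.24. Regions that were neither promoters nor gene ends also had a larger share called higher in the nearest bin than in the farthest. Of these, 10.2% of common regions were called higher under 1 kb from a TSS and 7.27% over 20 kb away, and in the shNC-specific set the shares were 16.8% and 9.18%. A difference in this between gene ends and other regions was not tested.

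**Figure D2:**
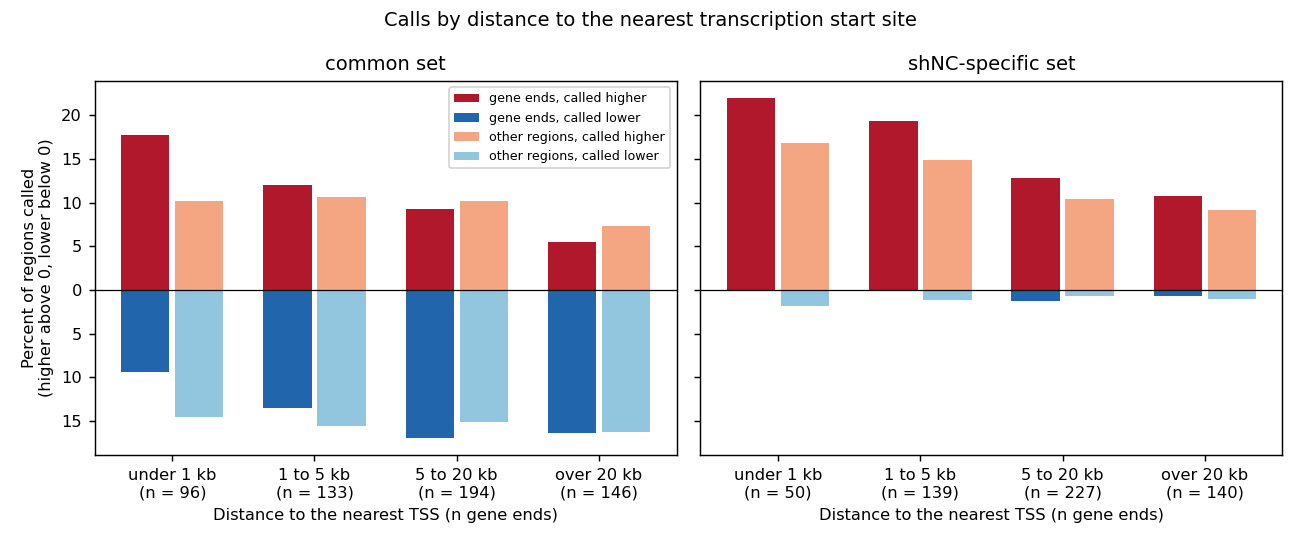
Percent of regions called higher (above 0) and lower (below 0) in the deeper pair, by distance to the nearest TSS, for gene ends (dark bars) and for regions that are neither promoters nor gene ends (light bars). Among gene ends of both sets the share called higher is largest under 1 kb (17.7% of common and 22.0% of shNC-specific gene ends) and smallest over 20 kb (5.48% and 10.7%).

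Much of the read count at gene ends sat in a handful of regions. Gene ends with a mean of at least 1000 normalized counts, a level chosen after the values were seen, numbered 9 and held 79.8% of all reads at gene ends. No other gene end had a mean above 506, and the median of the others was 55.7. Calls among the 9 were 6 higher and 0 lower. All 6 were in the common set, where 10.7% of all regions were called higher and 15.0% lower.

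The strongest was the end of a noncoding transcript on chromosome 1 listed as NR_106781, for which no gene symbol was given. Without a symbol it was counted in no gene group, the microRNA genes included. It held 313987 and 271537 normalized counts in the deeper libraries and 114364 and 81743 in the shallower ones, the highest mean of all regions in the table. It alone took 51.2% of the reads at gene ends. Both deeper libraries were above both shallower ones, while every called gene end of its shG8d-specific set lay the other way. The log2 difference, 1.59 ± 0.68 (SE), missed the call (limma, adjusted p = 0.0927).

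The ends of MTRNR2L genes made up 4 of the 9. These genes, named for their likeness to the mitochondrial 16S ribosomal RNA gene MT-RNR2, are nuclear copies of mitochondrial sequence and encode humanin-like peptides. Reads of one copy, of another or of mitochondrial DNA itself may be placed at any of them, and how the authors' alignment treated such reads is not given in the sources used here, so each of these values is uncertain. The MTRNR2L3 3' UTR on chromosome 20 held 3190.4 and 2659.8 normalized counts in the deeper libraries against 609 and 298 in the shallower ones, a log2 difference of 2.77 ± 0.23 (limma, adjusted p = 3.33e-07). The MTRNR2L10 3' UTR on chromosome X held 5458 and 4523 against 1701 and 1317, a difference of 1.73 ± 0.19 (limma, adjusted p = 5.12e-06). Both were also called in every fit that left out a library and on equal totals, with the deeper libraries apart from the shallower ones.

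The MTRNR2L1 3' UTR on chromosome 17 was far stronger, with 52599 and 48679 normalized counts against 26613 and 23491. Its log2 difference was 1.02 ± 0.36 (limma, adjusted p = 0.0485), and on equal totals the call was lost (adjusted p = 0.105). The MTRNR2L6 3' UTR on chromosome 7 stood out for its level values, 11645 and 11505 against 10949 and 11699.9, a difference of 0.03 ± 0.25 in overlapping libraries. The region at the start of the same gene held 2311 and 1658 against 460.3 and 204 normalized counts and was called higher by 2.67 ± 0.25 (limma, adjusted p = 1.25e-06). MTRNR2L4, below the 1000 line, had 366 and 217 against 79.7 and 26.9 at its TTS on chromosome 16, a difference of 2.57 ± 0.34 (limma, adjusted p = 5.62e-05). Within 2000 bp of the start of an MTRNR2L gene or at its end lay 13 regions, 5 of them gene ends, and 11 of the 13 were called higher and 0 lower. They belong to the common and shNC-specific sets, where 10.7% and 13.2% of all regions were called higher and 15.0% and 0.979% lower. Since reads of 1 copy may be placed at another, the 13 are not separate observations.

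The other 4 strong regions lay at MIR4485, DNAJB5, SPTLC3 and MIR3648-1. Whether reads that fit several places were counted at these 4, or at NR_106781, was not tested. The MIR4485 end on chromosome 11 held 62671 and 57342 normalized counts against 34930.3 and 32360.3, and its log2 difference of 0.83 ± 0.40 was not called (limma, adjusted p = 0.133). At the TTS of DNAJB5, a co-chaperone of HSP70 proteins, on chromosome 9, the deeper libraries held 13392 and 11303 and the shallower ones 2901 and 1338, a difference of 2.64 ± 0.27 (limma, adjusted p = 2.28e-06). At the TTS of SPTLC3, a subunit of the serine palmitoyltransferase that begins sphingolipid synthesis, on chromosome 20, they held 4976 and 3861 against 999 and 436, a difference of 2.73 ± 0.26 (limma, adjusted p = 1.13e-06). The last 2 calls held in all 4 leave-one-out fits and on equal totals. On a log scale the 2 shallower libraries often differed from each other more than the 2 deeper ones did in these strong regions, as at SPTLC3. In normalized counts the SD at SPTLC3 was the larger in the deeper pair, 789 against 398.

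**Figure D3:**
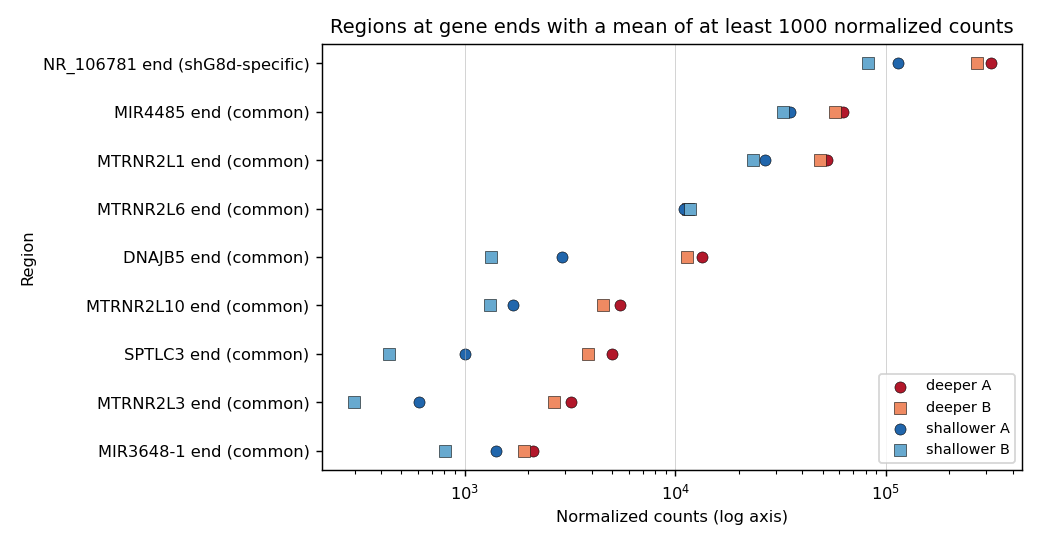
Normalized counts (horizontal, log axis) of the 9 gene ends with a mean of at least 1000, 1 line per region and 1 symbol per library. Deeper libraries (red) lie above shallower ones (blue) in 8 of them, while the 4 values of MTRNR2L6 fall together between 10949 and 11699.9.

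These regions set the share of reads that fell at gene ends. It was 8.11% and 7.63% in the deeper libraries and 5.15% and 4.60% in the shallower ones. Wilson 95% intervals were narrow, for example 8.09% to 8.13% in the first, and cover counting error only, since amplified reads without molecular identifiers are not independent molecules. The deeper libraries were above the shallower ones, which in an exact two-sided permutation test gave p = 0.333, the smallest that 4 libraries allow. Over the regions with a mean under 1000 normalized counts the shares were 1.96% and 1.98% against 1.92% and 1.88%. In the shG8d-specific set alone, the gene ends held 81.8% and 78.1% of that set's reads in the deeper libraries and 41.1% and 32.2% in the shallower ones. Nearly all of these reads lay at NR_106781. It held 313987 normalized counts in deeper library A, where the median gene end of that set held 24.4.

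Outside those strong regions, the largest differences of the common set fell at ends with ordinary coverage. MEG9, a long noncoding RNA gene of the imprinted DLK1-DIO3 domain on chromosome 14, held 178 and 172 normalized counts at its TTS in the deeper libraries against 62.8 and 43.4 in the shallower ones, a log2 difference of 1.72 ± 0.23 (limma, adjusted p = 6.19e-05). Its libraries did not overlap, and the call held in each leave-one-out fit.

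The lowest common difference was at the TTS of RLN3, which encodes the peptide hormone relaxin 3, on chromosome 19. That region lay 167 bp past the TSS of IL27RA, a cytokine receptor gene, so the end of one gene coincides with the start of the next. It held 33.7 and 33.9 normalized counts in the deeper libraries against 94.2 and 122 in the shallower ones, a difference of -1.64 ± 0.26 (limma, adjusted p = 0.00035). The TTS of F5, the gene of coagulation factor V, on chromosome 1 had values of 31.1 and 32.3 against 83.4 and 105, a difference of -1.53 ± 0.27 (limma, adjusted p = 0.000795). Both pairs were cleanly apart at both ends.

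TINCR, a long noncoding RNA known for its part in epidermal differentiation, showed 37.0 and 49.2 normalized counts at its TTS on chromosome 19 in the deeper libraries against 116 and 114 in the shallower ones. The difference was -1.41 ± 0.25 (limma, adjusted p = 0.000774), and the libraries of the pairs lay well apart. The 3' UTR of RPS6KA5, which encodes the nuclear kinase MSK1, the 3' UTR of FAM163A and the TTS of WFDC21P completed the 6 lowest, with differences of -1.47, -1.40 and -1.35. Of the 6 calls 5 held in every leave-one-out fit, the exception being FAM163A without 1 library (adjusted p up to 0.0554). FAM163A had a further region at its end, in the shNC-specific set, that was also called lower, by -0.97 ± 0.35 (limma, adjusted p = 0.0495).

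In the shNC-specific set the leading gene end was that of JUNB, a subunit of the AP-1 transcription factor and an immediate early gene. Its TTS region on chromosome 19 held 143 and 128 normalized counts in the deeper libraries and 24.2 and 44.5 in the shallower ones. The difference was 2.01 ± 0.28 (limma, adjusted p = 0.000107). The pairs did not overlap, and the call held in all 4 leave-one-out fits and on equal totals.

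Next to it came ends of unrelated genes. The MIR1184-1 end on chromosome X differed by 1.99, but this gene has near-identical copies, so its reads may belong to another copy. Its call did not hold without each library in turn. The 3' UTR of AAK1, a kinase of clathrin-mediated endocytosis, held 53.9 and 56.5 normalized counts against 7.25 and 24.6, a difference of 1.95 ± 0.44 (limma, adjusted p = 0.00429). The antisense gene STK32A-AS1 and TBL3, part of the small-subunit processome that builds ribosomes, differed at their TTS by 1.93 and 1.53. The 4 called lower in this set were the ends of FRMPD1, FAM163A, MYC and DBN1, with differences from -1.03 to -0.59, and none of them was called in all 4 leave-one-out fits.

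In the shG8d-specific set the lowest was the TTS of CLN3, which encodes a lysosomal membrane protein, on chromosome 16. It held 16.8 and 20.2 normalized counts in the deeper libraries and 61.6 and 85.5 in the shallower ones, a difference of -1.92 ± 0.33 (limma, adjusted p = 0.000574). TMEM158, DST, LOC613206, KIF2A and MIR4785 followed, from -1.78 to -1.46. KIF2A encodes a kinesin that takes microtubules apart, and its 3' UTR held only 18.5 and 8.88 normalized counts against 29.0 and 52.7. The call of KIF2A was lost in 2 of the 4 leave-one-out fits and that of DST in 1.

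Gene groups were matched on the gene whose end is annotated. Genes of epithelial junctions and identity, which hold the cells of an epithelial sheet together, had 7 gene ends, and 5 were called higher, 1 lower and 1 not at all. All 5 of the higher ones were shNC-specific regions, a set in which 13.2% of all regions and 82 of 556 gene ends were called that way. At the TTS of CLDN7, a claudin of the tight junction, on chromosome 17, the deeper libraries held 62.3 and 59.7 normalized counts and the shallower ones 25.4 and 29.3, a difference of 1.13 ± 0.30 (limma, adjusted p = 0.0117). At the TTS of SPINT1, a membrane-bound inhibitor of serine proteases, on chromosome 15, they held 58.1 and 68.6 against 32.6 and 30.5, a difference of 0.98 ± 0.29 (limma, adjusted p = 0.021). At the 3' UTR of F11R, the junctional adhesion molecule JAM-A, on chromosome 1, they held 53.0 and 54.9 against 27.8 and 29.3, a difference of 0.90 ± 0.31 (limma, adjusted p = 0.04). In these 3 the libraries of the pairs were apart and each pair was close within itself.

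The protease gene PRSS8 (prostasin) and the claudin gene CLDN4 differed by 0.79 and 0.67, with shallower libraries that were far from each other, 85.8 and 46.9 at PRSS8 and 94.2 and 65.6 at CLDN4. These 5 calls were fragile: on equal library totals 0 of the 5 passed, with adjusted p from 0.0553 to 0.296, and each held in only 1 or 2 of the 4 leave-one-out fits. CLDN1, another claudin, went the other way in the common set, where 15.0% of all regions were called lower. Its 3' UTR on chromosome 3 held 63.1 and 58.1 normalized counts against 97.9 and 116, a difference of -0.80 ± 0.23 (limma, adjusted p = 0.0169), and held in 2 of the 4 leave-one-out fits. GRHL3, a transcription factor of the epidermal barrier, gave 0.20 at its TTS and did not pass.

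Keratin genes, which encode the intermediate filaments of epithelia, had 6 gene ends, all shNC-specific. Of these 1 was called, as higher, beside 13.2% of all regions of that set. KRT80 held 70.7 and 53.3 normalized counts at its TTS on chromosome 12 in the deeper libraries against 16.9 and 14.1 in the shallower ones, a difference of 1.93 ± 0.35 (limma, adjusted p = 0.000914). The deeper libraries were far above the shallower ones, and the call held on equal totals and in 3 of 4 leave-one-out fits. KRT13, KRT17, KRT23, KRT37 and KRT78 ranged from -0.43 to 0.61 and did not pass. The end of DST, whose plakin protein ties keratin filaments to hemidesmosomes, was the only gene end of the hemidesmosome, laminin and integrin list and was called lower, by -1.61 ± 0.43 (limma, adjusted p = 0.0122). It belongs to the shG8d-specific set, where 70.0% of all regions were called lower.

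AP-1 and immediate early genes, whose products respond within minutes to growth signals, had 6 gene ends at 5 genes. In the common set 1 of 2 was called lower, beside 15.0% of all common regions. In the shNC-specific set 1 of 3 was called higher and 1 lower, beside 13.2% and 0.979%, and in the shG8d-specific set the single one was called lower, beside 70.0%. Beside JUNB, the FOSB TTS region on chromosome 19 held 53.9 and 63.8 normalized counts in the deeper libraries against 147 and 138 in the shallower ones, a difference of -1.27 ± 0.22 (limma, adjusted p = 0.000666) in the shG8d-specific set. The JUN TTS region on chromosome 1 held 92.6 and 117 against 168 and 175, a difference of -0.71 ± 0.20 (limma, adjusted p = 0.0147) in the common set. The JUNB end lay 2322 bp and the FOSB end 7483 bp from the gene's own TSS. They were thus high in opposite pairs, each on the side to which most calls of its set fell, and both calls held in all 4 leave-one-out fits.

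MYC, the growth-regulating transcription factor on chromosome 8, had a gene end in 2 sets. Its 3' UTR region, 6666 bp from the TSS, held 60.6 and 101 normalized counts against 137 and 137 and was called lower by -0.80 ± 0.24 (limma, adjusted p = 0.0203) in the shNC-specific set. Its TTS region, 7515 bp from the TSS, held 313 and 310.7 against 317 and 287, a difference of 0.05 ± 0.16. Within 1 gene end, one region was thus called and its neighbour was level. ATF4, a transcription factor of the stress response, gave -0.01 at its TTS.

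Most histone genes are short and clustered, so that the end of one can lie close to its own or a neighbour's promoter. The H2BC5 end, at -11713 bp from the nearest TSS, did not. Of 6 core histone ends 2 were called lower and 0 higher, 1 of 4 in the common set, where 15.0% of all regions were called lower, and the single one in the shG8d-specific set, where 70.0% were. The single linker histone end, in the common set, was called lower. At the TTS of H3C13 on chromosome 1, only 139 bp past the TSS of the neighbouring histone gene HIST2H2BF, the libraries held 79.9 and 81.5 normalized counts against 158 and 131, a difference of -0.83 ± 0.21 (limma, adjusted p = 0.00833). The TTS of H2BC4 on chromosome 6 held 32.8 and 28.2 against 60.4 and 84.4, a difference of -1.20 ± 0.30 (limma, adjusted p = 0.00736). The TTS of H1-2, which encodes a linker histone, held 91.7 and 87.2 against 138 and 145, a difference of -0.66 ± 0.20 (limma, adjusted p = 0.0243). The deeper libraries were below the shallower ones at each. Of the 4 leave-one-out fits, the H2BC4 call held in 4, and the H3C13 and H1-2 calls in 2 each, with adjusted p up to 0.0794 and 0.176. H2BC5, H3C7, H4C12 and H4C16 ranged from -0.53 to 0.07 without a call.

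Genes of NF-kB signalling and inflammation had 6 gene ends, with 2 called lower and 0 higher. Both calls were among 4 ends of the common set, where 15.0% of all regions were called lower. The TTS of IL1A, the gene of the cytokine interleukin 1 alpha, on chromosome 2 held 37.9 and 27.4 normalized counts against 68.9 and 99.6, a difference of -1.33 ± 0.29 (limma, adjusted p = 0.00364) that held in every leave-one-out fit. The TTS of CCL20, a chemokine gene, held 163 and 151 against 208 and 249.6, a difference of -0.53 ± 0.18 (limma, adjusted p = 0.0383) that held in 1 of the 4. RELA, TNFAIP2, IL6 and TNFRSF10B ranged from -0.57 to 0.51 without a call.

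Genes of the Hippo pathway, which restrains growth through the coactivator YAP, had 5 gene ends, with 2 called lower and 0 higher. These were its 2 ends in the common set, where 15.0% of all regions were called lower. The TTS of STK3, the Hippo kinase MST2, on chromosome 8 held 48.8 and 46.8 normalized counts against 70.1 and 156, a difference of -1.11 ± 0.30 (limma, adjusted p = 0.0123), with shallower libraries that were far from each other. The STK3 promoter region was called the other way, with 190 and 213 normalized counts against 126 and 105. That difference of 0.80 ± 0.19 (limma, adjusted p = 0.00594) was lost on equal totals. The 3' UTR of ANKRD1, a transcript known to rise with YAP activity, held 27.8 and 22.6 against 49.5 and 53.9, a difference of -1.02 ± 0.32 (limma, adjusted p = 0.028). The STK3 call held in 3 and the ANKRD1 call in 1 of 4 leave-one-out fits. AMOTL1, VGLL3 and WWC1 were between 0.31 and 0.60 and did not pass.

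Other lists gave few calls. The only gene end of the EGF receptor and ligand list was the TTS of AREG, the gene of the growth factor amphiregulin, with 48.8 and 36.3 normalized counts against 21.7 and 16.4, a difference of 1.12 ± 0.36 (limma, adjusted p = 0.0315) that was lost on equal totals. It belongs to the shNC-specific set, where 13.2% of all regions were called higher. Zinc finger genes of the C2H2 type had 9 gene ends, with 1 called higher, at ZNF551 (1.09 ± 0.26, limma, adjusted p = 0.00611). That was 1 of 6 in the common set, beside 10.7% of all common regions, and 0 of 3 in the shNC-specific set. The 7 gene ends of ribosomal protein genes, 5 of mesenchymal genes, 3 of squamous differentiation genes, 3 of chromatin compaction genes, 2 of NRF2 targets and 1 of interferon response genes gave 0 calls in either direction. No gene end belonged to the TGF-beta, cell cycle or small nucleolar RNA host lists.

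**Figure D4:**
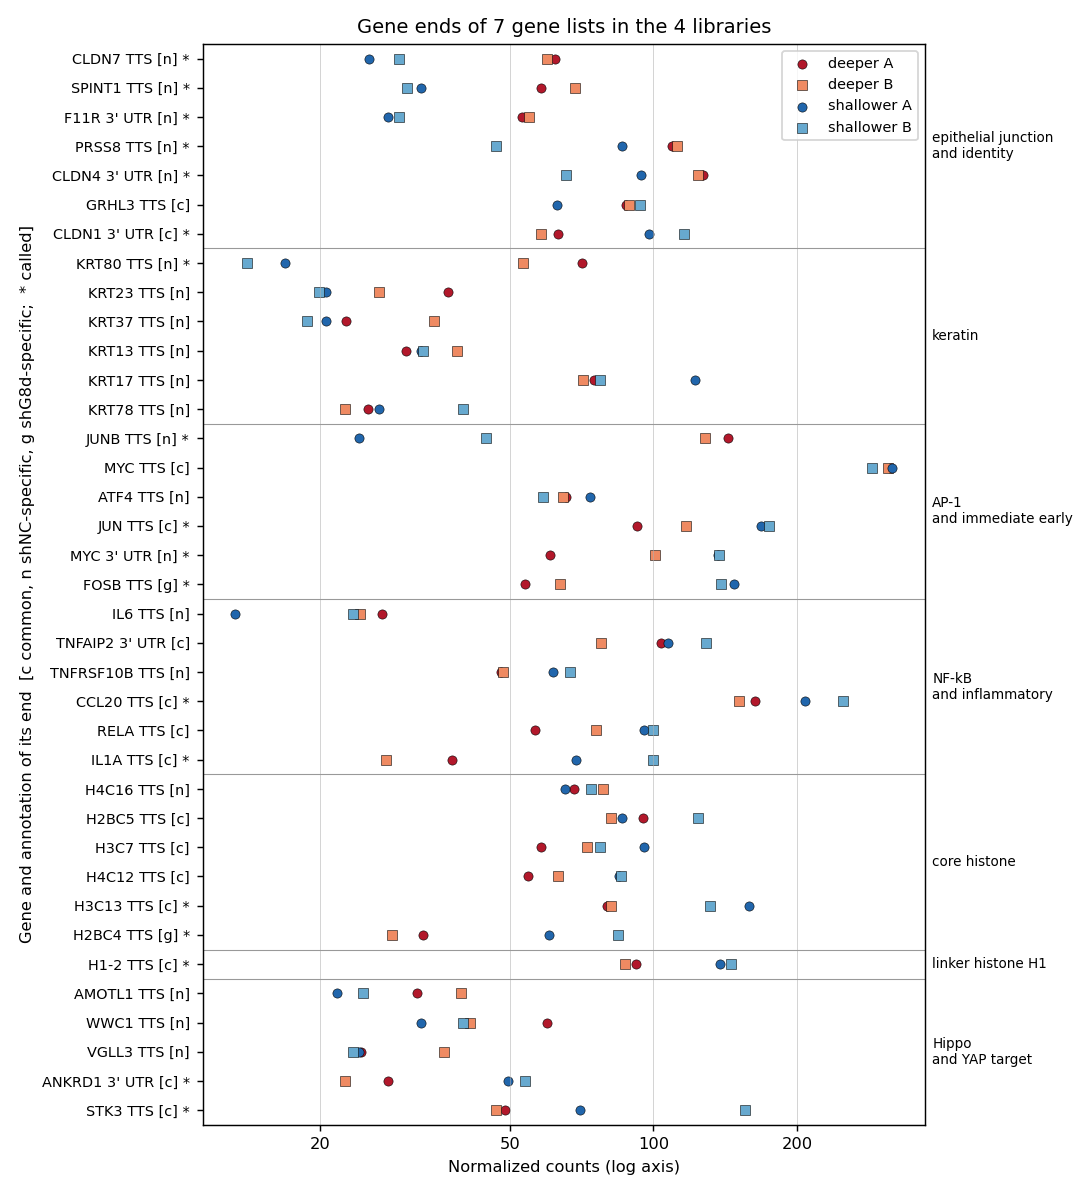
Normalized counts (horizontal, log axis) of the gene ends of 7 gene lists, 1 line per region and 1 symbol per library, with the region set in brackets and an asterisk at called regions. Red symbols (deeper pair) lie to the right of blue ones at CLDN7, SPINT1, F11R, KRT80 and JUNB, and to the left at CLDN1, FOSB, JUN, IL1A, H3C13 and H1-2.

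The 50 regions at genes with a microRNA symbol lay between 105 and 1087 bp from the nearest TSS. In the common set 6 of 28 were called higher and 2 lower, with a median log2 difference of 0.03, beside 10.7% and 15.0% of all common regions. In the shNC-specific set 1 of 19 was called higher and 0 lower, with a median of 0.34, beside 13.2% and 0.979%. In the shG8d-specific set 0 of 3 were called higher and 1 lower, with a median of -0.79, beside 0.0363% and 70.0%. The microRNA genes named here were picked because they were called. Apart from MIR1184-1, the largest rise was at MIR5587 on chromosome 16, whose 2 mature arms are given above. It held 135 and 139 normalized counts in the deeper libraries against 62.8 and 41.0 in the shallower ones, a difference of 1.42 ± 0.24 (limma, adjusted p = 0.000633). MIR4669 on chromosome 9 held 233 and 245 against 140.1 and 98.4, a difference of 1.02 ± 0.20 (limma, adjusted p = 0.00159). Both calls held on equal totals and without each library in turn.

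MIR3648-1, MIR3935, MIR4756 and MIR6838 were called higher by 0.91, 0.85, 0.67 and 0.64, of which the last 2 were lost on equal totals. None of these calls held without each library in turn. As said above, it was not tested whether the MIR3648-1 region holds reads that fit several places. At MIR4785 on chromosome 2, in the shG8d-specific set, the deeper libraries held 18.5 and 26.6 normalized counts and the shallower ones 59.2 and 66.8, a difference of -1.46 ± 0.32 (limma, adjusted p = 0.00384). A second region at the same end, 105 bp from the TSS and in the shNC-specific set, lay the other way, with 48.0 and 38.7 against 31.4 and 29.3, a difference of 0.49 that was not called. MIR3917, whose region lay 717 bp past the TSS of the stathmin gene STMN1, was called lower by -0.94. The annotation names MIR3179-1, a duplicated gene of chromosome 16, at 3 regions, with differences of -0.96, -0.79 and -0.49, of which the first was called. The nearest TSS belonged to another copy at each, MIR3179-4, MIR3179-3 and MIR3179-2 in that order. Neither the MIR3917 call nor that of MIR3179-1 held without each library in turn. Reads of these copies cannot be assigned with certainty. None of these values measures the microRNA itself.

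Besides MIR3179-1, whose regions lay nearest to different copies, 5 genes had at least 3 regions at their end. SH3TC2, which encodes an adaptor protein of endosome recycling, had 4 in its last exon on chromosome 5. They differed by -0.42, -0.04, 0.41 and 0.72, and the last was called (limma, adjusted p = 0.0126), although not on equal totals. Its values were 209 and 166 normalized counts in the deeper libraries and 111 and 115 in the shallower ones. ARHGEF37 had 1 of 3 called, by 0.83 at its TTS (limma, adjusted p = 0.00759), also lost on equal totals. The 3 regions each of GNAO1, SYT15 and TRERF1 ranged from -0.32 to 0.94, with 0 called. Differences between regions of the same gene end were not tested.

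A gene end and the promoter region of the same gene could be set side by side in 616 cases, taking the promoter region of highest signal. Across these pairs of regions Pearson's r between the log2 differences was 0.0069 and Spearman's rho was -0.03, which describes regions that share libraries and scaling and is given without a p. Where the end was called higher (81 cases), the promoter was called higher in 16, lower in 10 and not called in 55. Where the end was called lower (57 cases), the promoter was called higher in 16, lower in 8 and not called in 33. Both were called in opposite directions in 26 cases and in the same direction in 24. With equal library totals, 9 of the 26 and 15 of the 24 were again called at both places in those directions, and 1 and 3 were in all 4 leave-one-out fits.

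JUNB and JUN were each called in the same direction at both places. The JUNB promoter held 99.3 and 102 normalized counts against 64.0 and 53.9, a log2 difference of 0.77 ± 0.23 (limma, adjusted p = 0.0226), which was lost on equal totals. The JUN promoter held 236 and 267 against 365 and 519, a difference of -0.79 ± 0.18 (limma, adjusted p = 0.00473). In both genes the end and the start leaned to the same pair of libraries.

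RPS6KA5 had the 2 places called in opposite directions. Its 3' UTR held 34.5 and 40.3 normalized counts in the deeper libraries against 87.0 and 127 in the shallower ones, while its promoter held 398 and 353 against 197 and 146, a difference of 1.14 ± 0.18 (limma, adjusted p = 0.000344). The end thus lay below and the start above the shallower libraries, with no overlap at either place. The other 4 widest contrasts were at SPTLC3, TMEM158, FRMPD1 and ADAM12. SPTLC3, with 2.73 at its end, had only 26.9 and 20.2 normalized counts at its promoter in the deeper libraries against 42.3 and 53.9 (limma, adjusted p = 0.0375). The differences were -1.78 at the end and 1.34 at the promoter of TMEM158, -1.03 and 1.62 for FRMPD1, and 1.08 and -1.79 for ADAM12, a membrane metalloprotease gene. On equal totals the ADAM12 end and the TMEM158 promoter were no longer called (adjusted p = 0.14 and 0.0552). At KRT80 the promoter gave -0.14 and was not called, beside 1.93 at the end.

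**Figure D5:**
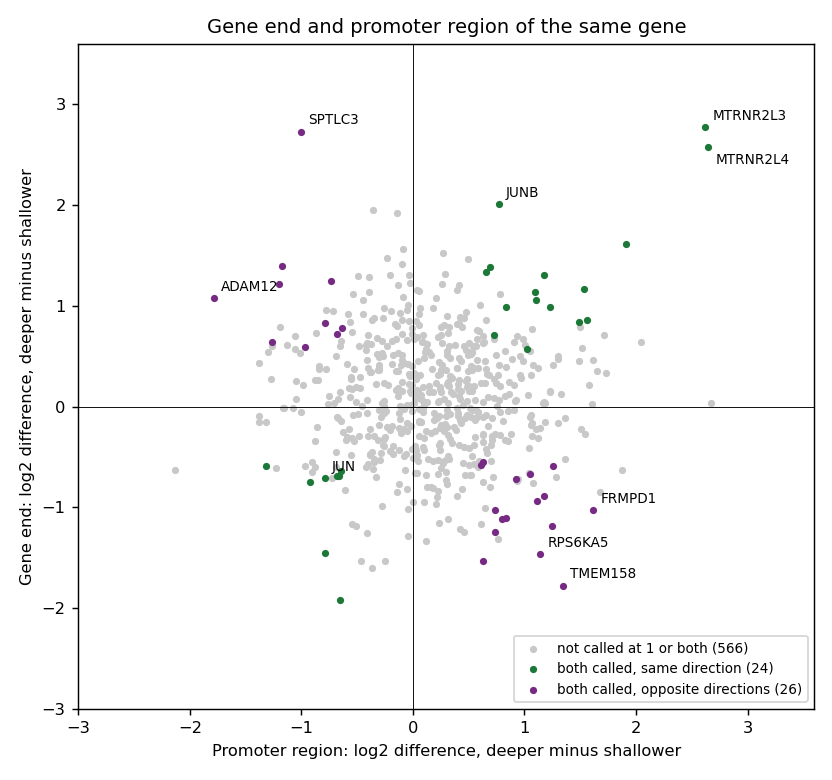
Log2 difference (deeper minus shallower pair) at the gene end (vertical) against that at the promoter region of the same gene (horizontal) for 616 cases. Green points are called at both places in the same direction (24) and purple points in opposite directions (26), and the cloud shows no slope (r = 0.0069).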

How the data were processed

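Chromatin accessibility was measured by ATAC-seq in 4 libraries of MCF10A cells, 2 labelled shG8d and 2 labelled shNC. The submitters' processing notes name CASAVA 1.4 and the build hg19. Which aligner, peak caller and normalization were used is not given in those sources. Per the file headers, the authors' deposited table gives for each region an annotation, the distance to the nearest TSS, a log10 normalized value per library and the authors' own p-value and log2 fold change. The authors' fold changes and p-values were not used.

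Normalized counts were 10 to the deposited log10 value. In each library all values were whole multiples, within 0.05 reads, of the normalized counts worth of 1 read, which gave read numbers and identified the same library under its exchanged label. Gene ends were regions annotated 3' UTR or TTS. The gene was taken from the annotation's accession through RefSeq (GRCh38.p14): 1138 of 1165 matched, 20 took the deposited symbol and 7 are named by accession. Of the 50 regions at microRNA genes, 48 had a RefSeq sequence.

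Differences were tested with limma 3.58.1 in R 4.3.3 on log2(normalized count + 1) with a mean-variance trend over all 58127 regions, 2 libraries against 2, with Benjamini-Hochberg adjustment. A filter of at least 10 normalized counts in 2 libraries removed 0 regions. The fit was checked on simulated data. Named were, per set, the 6 largest called differences in each direction without overlap of the pairs, the 5 highest means, called members of the gene lists, genes with at least 3 regions at their end and the 5 widest contrasts with a promoter called the other way. The members and lists were chosen with earlier results of these data known.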

Additional observations from a re-analysis of the deposited data

How the results depend on the processing

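Each choice was changed singly. With equal library totals the common gene ends split into 24 higher and 207 lower, the shNC-specific into 30 and 30 and the shG8d-specific into 0 and 32, and the medians were -0.42, -0.017 and -1.30. Fitting each set alone gave 31 higher and 0 lower in the shNC-specific set and 1 higher in the shG8d-specific set. A mean of at least 40 normalized counts left 2 lower in the shNC-specific and 12 lower in the shG8d-specific set, with medians of -0.048 in the common and 0.40 in the shNC-specific set. TMM factors gave 2 lower in the shNC-specific set, and a pseudocount of 5 a median of 0.30 there. A limma-voom fit on recovered reads, chosen after seeing the data, called 1 higher in the shG8d-specific set. The replicate block (letters A and B) gave 7 lower in the shNC-specific set and 1 higher in the shG8d-specific set. No label says what the shared letters stand for. Deviations of same-letter libraries correlated at -0.0039, a value that cannot show how the libraries were prepared. Leaving out each library gave 23 to 90 higher and 24 to 100 lower in the common set, 20 to 142 higher and 0 to 9 lower in the shNC-specific set, and 0 to 1 higher and 11 to 23 lower in the shG8d-specific set. The medians then ran from -0.103 to -0.0657, from 0.28 to 0.37 and from -1.07 to -0.75. For moves other than those from fewer libraries or regions the cause was not tested. Of the 50 called named regions, 40 kept their call with equal totals, 38 with each set fitted alone, 26 without deeper-pair replicate A, 30 without deeper-pair replicate B and 50 under the replicate block, and 0 reversed under any setting. A pseudocount of 0.5, no filter, TTS or 3' UTR regions alone and the promoter region nearest to the TSS left counts within 1.5 times. The difference between the pairs in the share of reads at gene ends was 2.99 percentage points in all sets, 1.05 in the common set alone and 0.07 without regions of a mean of at least 1000. The edgeR fit was not run, since the deposited values are on a log10 scale. Equal totals moved all regions toward lower, so lower calls had to be kept there. Depth is a limit too: with 46 reads in the median gene end of a shallower library and 2 libraries a side, small differences could not be detected.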
